A study of Mus musculus with 24 samples.

Results

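Quadriceps muscle of mdx mice was compared between 5 days and 2 weeks of age on Affymetrix mouse genome arrays. The arrays were chosen by their titles: 3 of mdx quadriceps at 5 days and 3 at 2 weeks, which is 6 of the 24 arrays of the series. The other 18 arrays hold mdx muscle at 3 and 6 weeks and muscle of the control strain, called BL10 in the labels, at all 4 ages, again with 3 arrays in each group. The mdx mouse carries a premature stop codon in Dmd, the dystrophin gene, and is the standard mouse model of Duchenne muscular dystrophy, although it still has utrophin, a related protein, and its limb muscles regenerate well. The labels name no treatment of either strain. They call the arrays biological replicates and give neither sex nor the number of animals behind each array. The p-values therefore measure the spread between arrays, pooled over all 8 groups of the series. The 6 mdx arrays can scatter more than that.

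In the first weeks after birth a mouse muscle stops adding fibres, and the existing fibres enlarge and mature. Embryonic and neonatal isoforms of the contractile proteins are replaced by adult ones, the fetal subunit of the acetylcholine receptor gives way to the adult one, and the calcium stores and glycolytic enzymes of fast fibres build up. In mdx quadriceps the first large wave of fibre necrosis comes later, at about weaning, so by their labels the 2 ages lie before that wave. Whether injury had begun in the muscles on the 2-week arrays was not tested.

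All values below are log2 of the deposited intensity plus 16 after quantile normalisation, where 4 is the floor that an intensity of 0 or less takes. A difference of 1 is a doubling on that scale, and it understates the change of weak genes. Each gene is represented by its brightest probe set, and a gene was called when its adjusted p in limma (Benjamini-Hochberg over 15000 genes) was under 0.05. The probe sets of Myh1, Phkg1, Gpd1, Sdhc, Gbp2, Tnfaip2, Igsf1, Egfbp2 and Sry are of a type that can match more than 1 gene, so their values are less certain.

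Dmd itself put 1 array against its label. The brightest Dmd probe set read 8.29, 8.06 and 8.48 on the mdx arrays at 5 days and 7.73, 8.33 and 10.31 on those at 2 weeks. The BL10 arrays read 9.87, 10.02 and 10.02 at 5 days and 9.18, 10.03 and 10.08 at 2 weeks. Replicate 3 of mdx at 2 weeks was thus above every BL10 array of these ages, and the other 5 mdx arrays were below all of them. A second Dmd probe set gave 7.83, 7.31 and 8.04 at 5 days and 7.05, 7.70 and 9.80 at 2 weeks, with the same array apart from the other mdx arrays. Its BL10 arrays read 9.36, 9.43 and 9.46 at 5 days and 7.70, 9.08 and 9.49 at 2 weeks, so 1 BL10 array lay within the mdx range. Of 2 Erdr1 probe sets, the one that was high in every BL10 array of both ages (8.94 to 10.55) read between 6.10 and 6.58 on 5 mdx arrays and 9.28 on the library labelled mdx at 2 weeks replicate 3. The other Erdr1 probe set did not set it apart (7.0, against 7.31 and 6.67 on the other 2-week mdx arrays), and Erdr1 was picked for this check after its values were seen. The array's description in GEO gives an age of 3 weeks, whereas its title, source name and age field give 2 weeks. A stop codon removes no exon, so mdx muscle shows a lower Dmd level in these probe sets and not a missing one. Another Dmd probe set, which gave 7.39, 8.55 and 8.29 at 5 days and 7.32, 7.13 and 8.4 at 2 weeks, did not set that array apart from the 5-day ones. Counts below are therefore given with all 6 arrays and again without the library labelled mdx at 2 weeks replicate 3, called replicate 3 at 2 weeks from here on. A gene reported as called with all 6 arrays was also called without it unless its loss is stated.

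**Figure D1:**
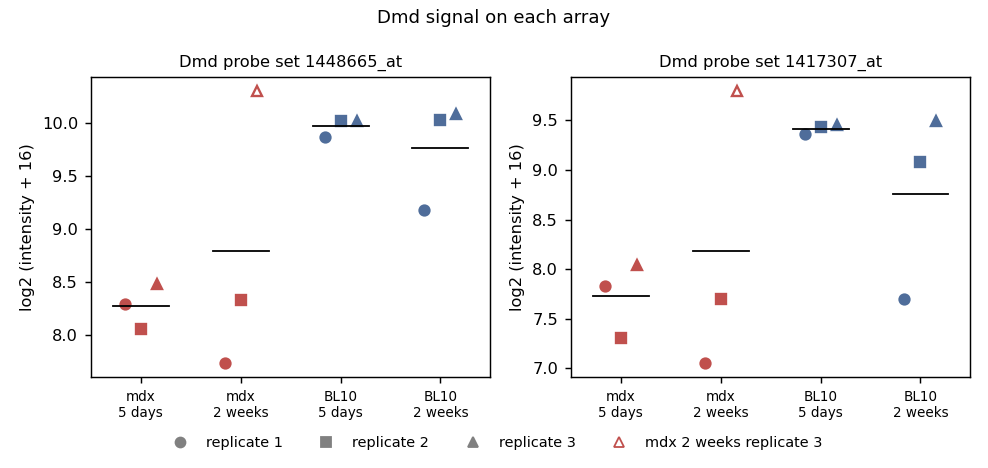
Dmd signal of 2 probe sets on the 12 arrays of mdx and BL10 muscle at 5 days and 2 weeks (y axis, log2 of intensity plus 16; x axis, group). Each symbol is an array, black lines are group means, and the open triangle is replicate 3 at 2 weeks in mdx, which reads 10.31 in the brightest probe set against 7.73 and 8.33 for the other mdx arrays of its group.

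The 6 arrays were close in brightness and in the controls for RNA quality. Median deposited intensity lay between 48.4 and 53.1, and between 2.68% and 3.82% of an array's values were below 0. The 3' minus 5' signal of the Gapdh control probe sets lay between -0.21 and -0.10 on the 6 arrays. Among the BL10 arrays of these ages only replicate 1 at 2 weeks was above 0, at 0.19 for Gapdh and 0.10 for actin. Eif2s3y, a Y-linked gene, read between 8.88 and 9.78 on all 6, while BL10 at 5 days replicate 1 read 4.0. Pearson correlations across all probe sets, which share one RNA protocol and one platform, were 0.955 to 0.958 among the 5-day mdx arrays and 0.955 to 0.965 among the 2-week ones. Replicate 1 at 2 weeks was most like mdx at 3 weeks replicate 1 (0.980), replicate 2 most like BL10 at 3 weeks replicate 2 (0.973) and replicate 3 most like BL10 at 3 weeks replicate 3 (0.973). The Dmd level of BL10 at 3 weeks replicate 2 also went against its label.

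Between 5 days and 2 weeks 2784 of 15000 genes were called in mdx muscle, 1743 higher (11.6% of those tested) and 1041 lower (6.94%). Of these, 666 of the higher and 422 of the lower genes changed at least 2-fold. Without replicate 3 at 2 weeks 1764 genes were called, 1179 higher (7.86%) and 585 lower (3.9%). These shares, with and without that array, are the background for every list count below. A count near them does not set a list apart from all genes. The calls shared by both fits numbered 1643, and none of the 2784 had the opposite sign without that array. The median difference over all genes was 0.06 in both fits. The arrays at 2 weeks all lay beyond those at 5 days for 30.3% of the genes tested, and for 2549 of the 2784 called genes. Replicate 3 was the highest 2-week array for 57.0% of the called higher genes and the lowest for 60.5% of the called lower ones, so it lay farther along the change than the other 2 arrays more often than not.

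The myosin heavy chains, the motor proteins of the sarcomere, exchanged newborn for adult isoforms. Myh3, the embryonic chain, read 11.62, 11.96 and 12.85 at 5 days and 10.49, 9.32 and 7.31 at 2 weeks, a difference of -3.10 (SE 0.66, n = 3 against 3, limma adjusted p = 0.0022). Myh8, the neonatal chain, was near the top of the array's range at 5 days with 13.79, 13.96 and 13.86 and read 11.43, 11.96 and 9.31 at 2 weeks, a difference of -2.97 (SE 0.59, limma adjusted p = 0.0014). For both genes every 2-week array was below every 5-day array, and replicate 3 at 2 weeks was the lowest. Without it the differences were -2.24 for Myh3 and -2.17 for Myh8, and both remained called. Both were called lower in BL10 too (-3.14 and -2.22).

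The 3 adult fast chains rose. Myh4, the chain of the fastest IIb fibres, which dominate adult mouse quadriceps, read 11.10, 11.82 and 9.88 at 5 days and 13.86, 13.88 and 13.77 at 2 weeks. Its difference of 2.91 (SE 0.26, limma adjusted p = 2.1e-07) was 2.94 without replicate 3 at 2 weeks. The 2-week values are near the top of the array's range, where a change can be compressed, so no fold is given. The 2-week arrays lay close together for Myh4, while the 5-day arrays spread widely, replicate 3 of that age being the lowest. Myh2, the IIa chain, read 11.82, 10.75 and 9.17 and then 13.46, 13.05 and 12.65, a difference of 2.47 (SE 0.42, limma adjusted p = 0.00036). Myh1, the IIx chain, read 12.54, 12.50 and 10.63 and then 13.51, 13.39 and 13.25, with a smaller difference of 1.49 (SE 0.29). Neither chain's 2-week arrays overlapped those of 5 days, and both remained called without replicate 3 (2.67 and 1.55). In BL10 neither of these chains was called (0.08 for Myh2 and -0.06 for Myh1). The BL10 mean at 5 days was already 12.81 for Myh2 and 13.26 for Myh1. The difference between the strains' changes was called for neither.

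Myh7, the slow chain, was not called. It read 11.32, 10.98 and 10.97 at 5 days and 12.46, 11.34 and 8.09 at 2 weeks, so 2 of the 2-week arrays were above all 5-day arrays and replicate 3 was far below them. The difference of -0.46 had an SE of 1.20. Leaving replicate 3 out turned its sign, to 0.81 (SE 1.21, limma adjusted p = 0.74).

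The 5 skeletal myosin heavy chain genes that moved lie in 1 cluster on mouse chromosome 11, and their promoters are shown because genes next to each other moved in opposite directions. The sequences are the 250 bases before the RefSeq start (GRCm38.p6, plus strand, 5′ to 3′), at chr11:67078050-67078299 for Myh3, chr11:67170777-67171026 for Myh2, chr11:67199852-67200101 for Myh1, chr11:67237562-67237811 for Myh4 and chr11:67276874-67277123 for Myh8. Capitals mark TATAAA, the run TTCTAATTATATCC and the run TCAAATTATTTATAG.
Myh3: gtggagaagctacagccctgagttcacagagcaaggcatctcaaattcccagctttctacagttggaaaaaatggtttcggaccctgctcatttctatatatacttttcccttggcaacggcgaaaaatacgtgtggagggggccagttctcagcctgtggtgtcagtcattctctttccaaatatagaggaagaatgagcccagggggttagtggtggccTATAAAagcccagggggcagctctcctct
Myh8: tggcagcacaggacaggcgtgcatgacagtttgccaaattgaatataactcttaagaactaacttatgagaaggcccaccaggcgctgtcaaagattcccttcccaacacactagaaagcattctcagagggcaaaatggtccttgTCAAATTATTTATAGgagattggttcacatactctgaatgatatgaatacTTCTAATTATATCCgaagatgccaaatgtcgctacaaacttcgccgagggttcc
Myh2: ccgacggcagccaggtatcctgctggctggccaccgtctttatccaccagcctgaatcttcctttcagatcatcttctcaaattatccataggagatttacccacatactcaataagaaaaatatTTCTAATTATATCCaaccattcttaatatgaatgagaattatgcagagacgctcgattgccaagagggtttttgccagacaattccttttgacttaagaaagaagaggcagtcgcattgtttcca
Myh1: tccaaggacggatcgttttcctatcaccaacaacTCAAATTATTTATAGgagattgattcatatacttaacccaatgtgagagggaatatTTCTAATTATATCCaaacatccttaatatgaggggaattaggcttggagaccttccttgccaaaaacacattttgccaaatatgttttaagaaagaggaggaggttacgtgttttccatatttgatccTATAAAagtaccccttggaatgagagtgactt
Myh4: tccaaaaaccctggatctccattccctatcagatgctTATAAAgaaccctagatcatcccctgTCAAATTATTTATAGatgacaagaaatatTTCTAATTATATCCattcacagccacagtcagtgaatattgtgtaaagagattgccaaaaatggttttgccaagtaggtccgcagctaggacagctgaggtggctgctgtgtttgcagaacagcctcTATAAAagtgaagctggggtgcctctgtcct

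The rising genes Myh2, Myh1 and Myh4 share the 20-base run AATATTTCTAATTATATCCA, whose first base is at position -130 in Myh2, -165 in Myh1 and -163 in Myh4, counted so that -1 is the last base before the start. On either strand it is in 3 of 32851 promoter windows of this length (0.00913%). The run was picked as the longest that these 3 windows have in common, so the share is no test of it. Its inner 14 bases, TTCTAATTATATCC, also stand before Myh8, which fell, and in no other window (4 windows, 0.0122%). The 15-base run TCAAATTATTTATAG is in the windows of Myh8, Myh1 and Myh4 alone (0.00913%). Both long runs are thus found with a chain that fell and with chains that rose, and Myh3 has neither. TATAAA begins at position -29 in Myh3, -32 in Myh1 and -31 in Myh4, with 1 farther match at -213 in Myh4. It is in 12.4% of all windows on either strand. TATAAA also overlaps the run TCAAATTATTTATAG on the opposite strand. The 5 windows have only the 7 bases TCAAATT in common, which 3.06% of windows hold. The other shared runs were picked in the same way, each as the longest common to its windows. A match is a matter of letters and was not tested as a site.

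**Figure D2:**
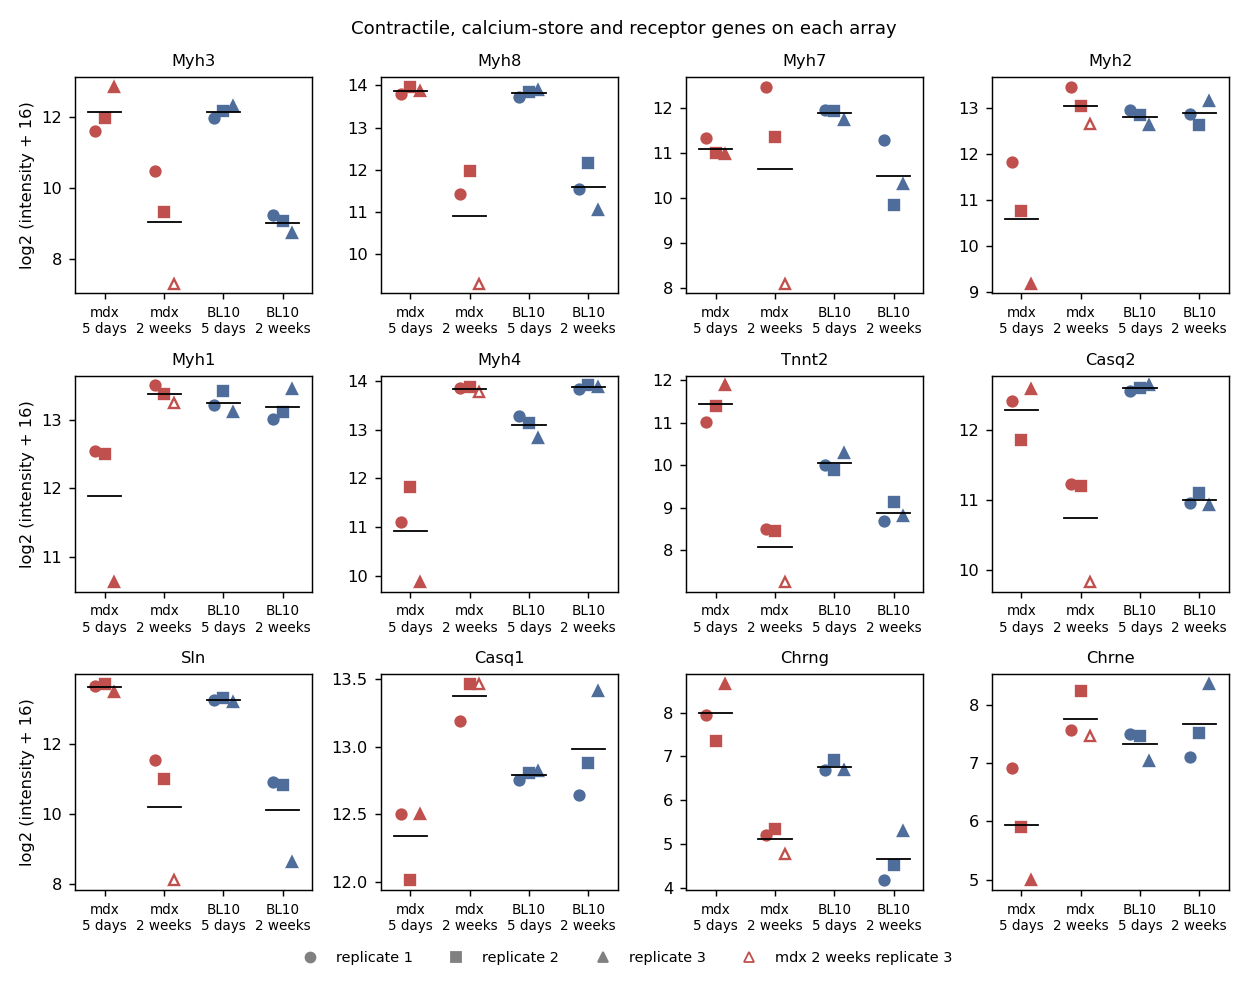
Log2 values of 12 contractile, calcium-store and receptor genes on the mdx and BL10 arrays at 5 days and 2 weeks. Symbols are arrays, black lines are group means and the open triangle is replicate 3 at 2 weeks in mdx. Myh3, Myh8, Tnnt2, Casq2, Sln and Chrng are lower at 2 weeks in mdx, and Myh2, Myh1, Myh4, Casq1 and Chrne are higher, whereas the 3 arrays of Myh7 at 2 weeks spread from 8.09 to 12.46.

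Newborn forms of a myosin light chain and of troponin T fell as well. Myl4, the embryonic and atrial light chain, read 11.64, 11.10 and 12.56 at 5 days and 9.35, 8.94 and 7.63 at 2 weeks (difference -3.13, SE 0.51, limma adjusted p = 0.00023). Tnnt2, the cardiac troponin T that newborn skeletal muscle also makes, read 11.02, 11.40 and 11.88 and then 8.50, 8.46 and 7.25 (difference -3.37, SE 0.53). Both fell without overlap and remained called without replicate 3 at 2 weeks (-2.62 and -2.96). Tnnt3, the fast troponin T, rose by 0.29 (SE 0.07) from an already high level, and was at 0.25 without that array. Actc1, cardiac actin, went against its developmental role in this comparison, with 12.77, 12.50 and 13.79 at 5 days, 13.58, 13.70 and 13.67 at 2 weeks and a difference of 0.63 (SE 0.18, limma adjusted p = 0.019). Its groups overlapped, because replicate 3 at 5 days was above all 2-week arrays. The Actc1 call was lost when any one of mdx at 5 days replicates 1 and 2 or mdx at 2 weeks replicates 2 and 3 was left out (highest adjusted p = 0.14).

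The fast light chains and fast troponins were already at the top of the scale at 5 days and gave small differences. Myl1 differed by -0.04, Mylpf by -0.01, Tnni2 by 0.02 and Tnnc2 by -0.05, and Acta1, skeletal actin, by -0.1. None was called, and at the top of an array's range a change can be compressed. The slow forms Myl2, Myl3, Tnni1, Tnnt1 and Tnnc1 and the slow calcium pump Atp2a2 were not called in the 6 arrays. Tnni1, slow troponin I, read 11.37, 10.94 and 12.37 at 5 days and 11.65, 10.27 and 7.57 at 2 weeks. In all 6 of these slow genes replicate 3 at 2 weeks was the lowest of its group. Myl3, the slow light chain, differed by 0.74 with all arrays and passed the test without replicate 3 (1.10, SE 0.34).

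Over the slow fibre list of 14 tested genes, 1 was higher and 2 lower, against 11.6% and 6.94% of all genes. Its median difference of -0.78 shrank to -0.13 without replicate 3, with 2 higher and 2 lower. Without mdx at 2 weeks replicate 1 the list had 0 higher and 4 lower genes and a median of -1.37. The mean over its members was 11.14, 10.86 and 11.09 at 5 days and 11.19, 10.48 and 8.95 at 2 weeks. Casq2, the calsequestrin of slow and newborn fibres, and Sln, sarcolipin, an inhibitor of the calcium pump, were the falling members. Tpm3, slow tropomyosin, was the rising one (0.52, SE 0.15), but it missed the threshold with unscaled values (0.40) and with median centring (0.39), and when mdx at 2 weeks replicate 1 or 2 or mdx at 5 days replicate 2 or 3 was left out (highest adjusted p = 0.096). With the mean of its probe sets Tpm3 had the opposite sign (-0.16).

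Of 19 tested genes of the fast fibre list, 12 rose and 0 fell, with a median difference of 1.03. Without replicate 3 at 2 weeks 12 were higher, with a median of 0.85. Pvalb, parvalbumin, the calcium buffer of fast fibres, read 9.31, 11.04 and 10.81 at 5 days and 13.84, 13.84 and 13.79 at 2 weeks (difference 3.44, SE 0.25, limma adjusted p = 1.6e-08). Rpl3l, a muscle form of a ribosomal protein, rose by 3.08 (SE 0.23) and Myoz3, a Z-disc protein of fast fibres, by 2.54 (SE 0.32). Pvalb, Rpl3l and Myoz3 showed no overlap between the ages.

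The calcium store changed its proteins too. Casq1, the calsequestrin of fast fibres, read 12.50, 12.01 and 12.50 at 5 days and 13.19, 13.46 and 13.46 at 2 weeks (difference 1.03, SE 0.14, limma adjusted p = 4.4e-05), while Casq2 read 12.41, 11.86 and 12.58 and then 11.22, 11.19 and 9.83 (difference -1.53, SE 0.35). Atp2a1, the fast calcium pump, rose by 0.53 (SE 0.11). Sln read 13.66, 13.72 and 13.49 at 5 days and 11.54, 10.99 and 8.12 at 2 weeks (difference -3.41, SE 0.81), with replicate 3 far below the other 2-week arrays. All 4 remained called without replicate 3, Sln at -2.36 (SE 0.76). In BL10 Casq1 and Atp2a1 were not called (0.19 and 0.14), whereas Casq2 and Sln were called lower (-1.59 and -3.13). The small pump regulators Pln and Mrln were not called (0.06 and -0.25).

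Of 19 tested genes of excitation and calcium release, 11 rose and 0 fell, against 7 without replicate 3 at 2 weeks and 7 without mdx at 5 days replicate 3. Clcn1, the muscle chloride channel, read 7.22, 5.42 and 5.51 and then 7.29, 8.49 and 8.58 (difference 2.07, SE 0.41). Stac3, which links the calcium channel to the release machinery, rose by 1.58 (SE 0.25), Jph2, a junctophilin, by 1.54 (SE 0.29), and Ryr1, the release channel, by 1.04 (SE 0.21). These 4 genes remained called without any one of the 24 arrays.

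The acetylcholine receptor of the nerve-muscle synapse changed subunits. Chrng, the fetal gamma subunit, read 7.94, 7.35 and 8.66 at 5 days and 5.22, 5.34 and 4.78 at 2 weeks, a difference of -2.87 (SE 0.49, limma adjusted p = 0.00034). Chrne, the adult epsilon subunit that replaces it, read 6.91, 5.90 and 4.99 and then 7.56, 8.24 and 7.46, a difference of 1.82 (SE 0.35, limma adjusted p = 0.0011). The arrays of the 2 ages did not overlap for either gene, and replicate 3 was the lowest 2-week array for both. Without replicate 3 the differences were -2.70 and 1.97. In BL10 Chrng was called lower (-2.10) and Chrne was not called (0.33).

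The receptor promoters are shown for the same reason as those of the myosins, since the pair moved in opposite directions. They are the 250 bases before the RefSeq start, at chr1:87205561-87205810 on the plus strand for Chrng and chr11:70619195-70619444 on the minus strand for Chrne (GRCm38.p6, 5′ to 3′). Capitals mark CANNTG, the E-box, which myogenic regulators such as myogenin bind, and CCGGAA, the N-box known from synaptic genes.
Chrng: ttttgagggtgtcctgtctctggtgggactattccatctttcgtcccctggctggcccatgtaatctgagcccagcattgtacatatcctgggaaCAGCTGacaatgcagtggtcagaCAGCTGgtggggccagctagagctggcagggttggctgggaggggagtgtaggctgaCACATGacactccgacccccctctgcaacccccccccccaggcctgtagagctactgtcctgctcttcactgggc
Chrne: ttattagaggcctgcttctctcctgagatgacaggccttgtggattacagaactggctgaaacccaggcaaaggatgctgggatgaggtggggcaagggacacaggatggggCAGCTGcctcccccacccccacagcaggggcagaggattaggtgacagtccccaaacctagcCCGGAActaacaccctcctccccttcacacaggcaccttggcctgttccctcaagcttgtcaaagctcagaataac

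Chrng, which fell, has 3 E-boxes, of which 2 read CAGCTG, and no N-box in this window. Chrne, which rose, has 1 E-box, from position -138 to -133, and 1 N-box, from -76 to -71. On either strand CANNTG is in 66.2% of all promoter windows and CCGGAA in 12%, so a match to the E-box is common.

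Among 13 tested genes of the synapse, 1 rose and 4 fell, with and without replicate 3. Chrne was the riser. Besides Chrng, Chrna1, the alpha subunit, fell by 1.55 (SE 0.30) and Musk, the kinase that organises the synapse, by 2.36 (SE 0.52). Musk read 6.68, 9.56 and 8.26 at 5 days and 5.83, 5.82 and 5.75 at 2 weeks, so it was spread at the earlier age and uniform at the later one.

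Many genes of newborn muscle and of fetal growth were lower at 2 weeks. Of 16 tested genes of the developmental muscle list 12 were lower and 1 higher, with a median difference of -1.56, and 10 were lower without replicate 3 at 2 weeks (median -1.39). Of 15 imprinted genes active in growth 11 were lower and none higher, with a median of -1.61. Without replicate 3 the imprinted count was 6 and the median -1.14, and without mdx at 5 days replicate 3 the count was 7. The list shares Dlk1, H19 and Igf2 with the developmental list. In bulk muscle a lower level can come from fewer cells of a type or from less RNA per cell, and these cannot be told apart.

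Dlk1, a fetal growth regulator, read 12.97, 12.69 and 12.56 at 5 days and 9.86, 10.81 and 7.73 at 2 weeks (difference -3.27, SE 0.71, limma adjusted p = 0.0027). Zim1, an imprinted zinc-finger gene next to Peg3, read 7.36, 6.90 and 8.05 and then 5.18, 5.68 and 4.89 (difference -2.19, SE 0.30). Dlk1 depends on replicate 3 for part of its size (-2.40 without it), while Zim1 hardly does (-2.01). Zim1 and the next genes, Peg3 and Igf2, were named after their values were seen.

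Peg3, a paternally expressed zinc-finger gene, read 12.45, 12.64 and 12.51 and 10.95, 11.33 and 10.39 (difference -1.64, SE 0.40), and remained called without replicate 3. Igf2, the fetal insulin-like growth factor, read 14.05, 14.03 and 13.91 and 13.18, 13.23 and 11.70 (difference -1.3, SE 0.45, limma adjusted p = 0.048) and did not remain called (-0.80). The long RNAs Mirg and Rian, which lie near Dlk1, and Mest, a paternally expressed enzyme, were called with all arrays (-3.20, -2.44 and -2.25). All 3 lost the call without replicate 3 at 2 weeks, which read 6.56 for Mirg against 9.06 and 9.35. Rian was also lost without any one of the 5-day mdx arrays and Mest without mdx at 5 days replicate 3 (highest adjusted p = 0.25 for Rian and 0.11 for Mest).

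Several genes of the growth-factor axis fell. Of 17 tested genes of insulin-like growth factor and growth hormone signalling 8 were lower and 1 higher (7 and 1 without replicate 3 at 2 weeks). Igf1r, the receptor, read 9.18, 9.96 and 9.04 at 5 days and 7.91, 7.77 and 8.12 at 2 weeks (difference -1.46, SE 0.26, limma adjusted p = 0.0005). Igfbp2, a binding protein that limits the ligands, read 8.31, 8.0 and 9.37 and then 6.33, 6.50 and 6.18 (difference -2.22, SE 0.24). Hmga2, a chromatin protein of growing tissues, fell by 1.59 (SE 0.29) and Igfbp3, a second binding protein, by 1.3 (SE 0.31). The arrays of the 2 ages did not overlap for Igf1r, Igfbp2 or Hmga2, and all 4 genes remained called without any one of the 24 arrays.

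Many genes of energy metabolism rose, other than those of fat oxidation. Of 17 tested genes of glycogen breakdown and glycolysis 14 were higher and none lower, with a median of 0.56. The count was 7 without replicate 3 at 2 weeks and 9 without mdx at 5 days replicate 2. Phkg1, a subunit of the kinase that starts glycogen breakdown, read 8.64, 8.10 and 7.66 at 5 days and 10.42, 10.88 and 11.69 at 2 weeks (difference 2.86, SE 0.26, limma adjusted p = 3.3e-07). Phka1, a regulatory subunit of the same kinase, rose by 2.00 (SE 0.28). Gpd1, cytosolic glycerol phosphate dehydrogenase, read 11.65, 11.38 and 11.24 and then 12.79, 13.09 and 12.87 (difference 1.49, SE 0.14). Phkg1, Phka1 and Gpd1 kept their calls without any one of the 24 arrays. Gys1, glycogen synthase, rose by 0.85 (SE 0.21) but narrowly missed the threshold without mdx at 5 days replicate 3 (adjusted p = 0.055).

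In the respiratory chain 17 of 30 tested subunits were higher and none lower, with a small median of 0.31 (13 and 0.34 without replicate 3 at 2 weeks). Cox7a1, the heart and muscle form of a cytochrome oxidase subunit, read 11.19, 10.93 and 10.37 at 5 days and 12.39, 12.60 and 12.40 at 2 weeks (difference 1.64, SE 0.17, limma adjusted p = 2.3e-06). Sdhc, a subunit of succinate dehydrogenase, rose by 0.94 (SE 0.22) and Ndufs1, of complex I, by 0.71 (SE 0.15). In the citrate cycle 8 of 14 genes were higher and 1 lower (8 and 0 without replicate 3 at 2 weeks), and without mdx at 2 weeks replicate 1 the higher count was 5. Idh3b rose by 0.59 (SE 0.11), whereas Idh2, the NADP-linked isocitrate dehydrogenase, had a difference of -0.99 that was no longer called without replicate 3 at 2 weeks (-0.70).

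None of 17 tested genes of fatty acid oxidation was called by limma with all arrays (median 0.23), and 1 was without replicate 3 at 2 weeks (median 0.46). The median was 0.06 and 0.04 without mdx at 2 weeks replicates 1 and 2, and -0.21 without mdx at 5 days replicate 3, so it has no settled sign. The members with the 2 largest differences show the spread. Ucp3, a mitochondrial carrier raised by fatty acids, read 9.71, 10.37 and 7.36 and 10.31, 10.48 and 8.89, and Cpt2, the inner carnitine transferase, read 10.72, 10.56 and 8.62 and 10.58, 10.90 and 9.82. In both genes mdx at 5 days replicate 3 and mdx at 2 weeks replicate 3 were the lowest of their groups. Of 11 genes of creatine and AMP metabolism 6 were higher and 1 lower, 5 and 1 without replicate 3 at 2 weeks, and 4 and 2 without mdx at 5 days replicate 2. Gatm, the first enzyme of creatine synthesis, was the one that fell, with 10.99, 10.06 and 11.39 at 5 days and 8.36, 9.09 and 7.81 at 2 weeks (difference -2.39, SE 0.47). Prkag3, the muscle subunit of AMP-activated kinase, rose by 1.94 (SE 0.41) and Prkaa2, a catalytic subunit, by 1.05 (SE 0.24).

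Several genes of muscle precursors and their fusion were lower at 2 weeks. Of 19 tested myogenic regulators and fusion genes 6 were lower and none higher, and 2 were lower without replicate 3 at 2 weeks. Myf5, a transcription factor of muscle precursors, read 8.12, 8.04 and 7.97 at 5 days and 6.70, 6.75 and 6.27 at 2 weeks (difference -1.47, SE 0.28, limma adjusted p = 0.00099), and remained called without any one of the 24 arrays. Mymx and Mymk, the 2 membrane proteins that fuse precursor cells into fibres, read 7.79, 7.92 and 9.50 and 8.60, 9.02 and 10.04 at 5 days and 6.94, 6.69 and 5.04 and 7.72, 8.08 and 6.29 at 2 weeks. Their differences were -2.18 (SE 0.55) and -1.86 (SE 0.57). Both lost the call without replicate 3 at 2 weeks (-1.58 and -1.32) and without mdx at 5 days replicate 3, the highest array of its group (highest adjusted p = 0.066 for Mymx and 0.17 for Mymk). Myog, myogenin, overlapped between the ages (difference -1.28, SE 0.38) and lost its call without mdx at 2 weeks replicate 2 or 3 or mdx at 5 days replicate 3 (highest adjusted p = 0.14).

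Of 31 tested cell-cycle genes 3 were lower and none higher, a share near the background. The list's mean was 7.52, 7.03 and 8.61 at 5 days and 7.87, 7.57 and 6.63 at 2 weeks, so the 2 ages overlapped. The lower count was 1 without replicate 3 at 2 weeks, 2 without mdx at 2 weeks replicate 2, 6 without mdx at 5 days replicate 2 and 1, with 2 higher, without mdx at 5 days replicate 3. Its median difference of -0.42 became 0.01 without replicate 3 at 2 weeks and 0.08 without mdx at 5 days replicate 3. Mcm6 and Mcm7, subunits of the replication helicase, were called with all arrays (-1.15 and -0.95) and lost the call when either of those arrays was left out (highest adjusted p = 0.094 and 0.1). Mcm3 differed by -0.54, stayed called without replicate 3 and lost its call without mdx at 2 weeks replicate 1 or 2 (highest adjusted p = 0.071).

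In protein synthesis the muscle form of an elongation factor rose while the general form fell. Eef1a2, the form of adult muscle and neurons, read 11.71, 11.26 and 10.40 at 5 days and 12.66, 13.04 and 12.94 at 2 weeks (difference 1.76, SE 0.23, limma adjusted p = 2.5e-05). Eef1a1, the form of most other cells, read 13.64, 13.64 and 13.67 and then 13.20, 12.87 and 12.26 (difference -0.87, SE 0.18). Neither overlapped between the ages, and both remained called without any one of the 24 arrays. Over the list 5 of 16 genes were lower and 1 higher, and 3 were lower without replicate 3 at 2 weeks, without mdx at 2 weeks replicate 2 or without mdx at 5 days replicate 2. Eif4ebp1, a brake on cap-dependent translation, fell by 1.33 (SE 0.22).

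Of 16 tested genes of the dystrophin complex 3 were lower and none higher with all arrays, against 6.94% and 11.6% of all genes. Without replicate 3 at 2 weeks 2 were lower. There were 2 higher and 3 lower without mdx at 2 weeks replicate 1, and 2 higher and 4 lower without mdx at 5 days replicate 1. Cav3, muscle caveolin, read 11.60, 11.75 and 11.72 at 5 days and 10.46, 10.27 and 10.72 at 2 weeks (difference -1.21, SE 0.23), and Sntb1, a syntrophin, read 10.20, 8.25 and 10.42 and 7.54, 7.96 and 6.77 (difference -2.20, SE 0.49). Both remained called without any one of the 24 arrays. Utrn, utrophin, the relative of dystrophin, read 10.11, 10.18 and 10.61 at 5 days and 9.71, 9.66 and 9.21 at 2 weeks (difference -0.77, SE 0.22, limma adjusted p = 0.018). Its arrays did not overlap between the ages, but the call was lost without replicate 3 at 2 weeks (-0.61) or mdx at 5 days replicate 3 (highest adjusted p = 0.11). Dmd was not called with all arrays (0.51, SE 0.47) or without replicate 3 (-0.25), which changed its sign.

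Of 26 tested genes of the extracellular matrix 3 were lower and 1 higher, against 6.94% lower and 11.6% higher among all genes. Without replicate 3 at 2 weeks 2 were lower and 1 higher. The lower count was 10 without mdx at 2 weeks replicate 1. It was 1 without mdx at 2 weeks replicate 2 or mdx at 5 days replicate 3. Fbn2, a fibrillin of embryonic and newborn tissue, read 10.22, 9.70 and 10.57 at 5 days and 7.20, 7.28 and 6.76 at 2 weeks (difference -3.09, SE 0.31, limma adjusted p = 1e-06). Col15a1, a basement membrane collagen, rose by 1.59 (SE 0.37). Fbn2 and Col15a1 remained called without any one of the 24 arrays. Postn, periostin, had a difference of -1.10, which was not called without any one of mdx at 5 days replicates 1, 2 and 3 or mdx at 2 weeks replicates 2 and 3 (highest adjusted p = 0.21). Of 16 tested genes of muscle injury and repair 4 were lower and none higher, against 6.94% and 11.6% of all genes. The lower count fell to 1 without mdx at 2 weeks replicate 2 or 3 or mdx at 5 days replicate 3. It fell to 2 without mdx at 5 days replicate 1 or 2. Without mdx at 2 weeks replicate 1 it was 6.

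**Figure D3:**
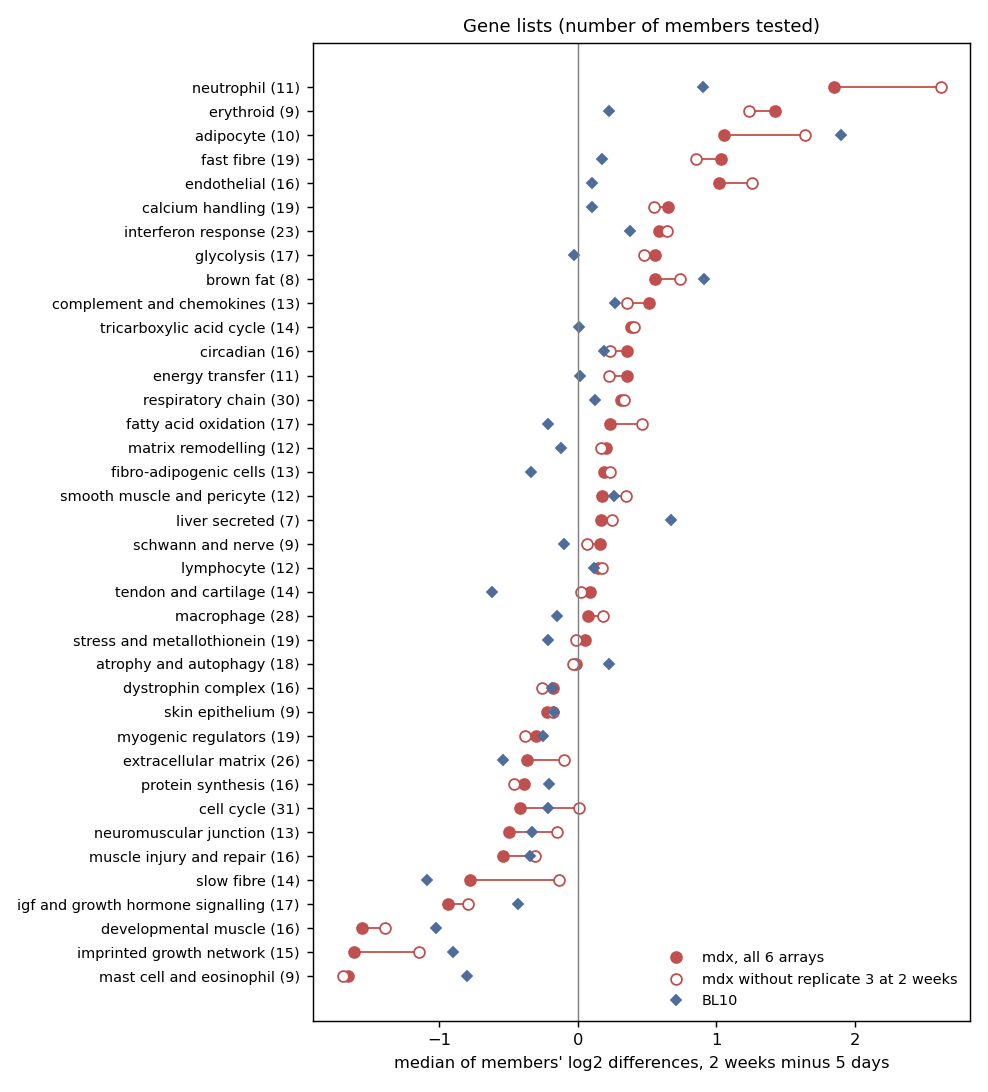
Median log2 difference, 2 weeks minus 5 days, of the tested members of 38 gene lists (number tested in brackets). Filled circles are mdx with all 6 arrays, open circles mdx without replicate 3 at 2 weeks and diamonds BL10. The slow fibre median moves from -0.78 to -0.13 and the neutrophil median from 1.85 to 2.62 when that array is left out.

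Vessel genes were higher at 2 weeks, most clearly on replicates 1 and 2. Of 16 tested endothelial markers 10 were higher and none lower with all arrays, and 12 without replicate 3 at 2 weeks. The count was 4 without mdx at 2 weeks replicate 1, 3 without mdx at 2 weeks replicate 2 and 4 without mdx at 5 days replicate 2. The list's mean was 8.67, 8.18 and 8.69 at 5 days and 9.74, 9.84 and 8.85 at 2 weeks, so replicate 3 was just above the earlier age. Flt1, a receptor for vascular growth factor, held on all arrays, with 7.95, 8.61 and 7.82 at 5 days and 9.25, 9.46 and 9.27 at 2 weeks (difference 1.20, SE 0.19). Esam, an adhesion molecule of endothelial junctions, rose by 1.13 (SE 0.23). Of 12 smooth muscle and pericyte genes 2 were called higher, against 11.6% of all genes, with a median of 0.18. The count was 2 without replicate 3 at 2 weeks. It was 1 without mdx at 2 weeks replicate 2 or mdx at 5 days replicate 2 or 3. Rgs5, a pericyte gene, was one of the 2 called with all arrays, with 11.16, 10.90 and 10.49 and then 12.28, 12.42 and 12.17 (difference 1.44, SE 0.19).

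Mast cell genes were lower. Of 9 tested markers of mast cells and eosinophils 6 were lower and none higher (5 lower without replicate 3 at 2 weeks), with a mean of 7.21, 7.26 and 7.72 at 5 days and 5.8, 6.25 and 5.55 at 2 weeks. Cma1, mast cell chymase, read 10.06, 9.82 and 10.61 at 5 days and 7.08, 7.48 and 6.62 at 2 weeks (difference -3.10, SE 0.31, limma adjusted p = 1e-06). Cpa3, mast cell carboxypeptidase, read 9.03, 9.26 and 10.84 and then 6.27, 7.06 and 6.21 (difference -3.20, SE 0.39). Tpsb2, a tryptase, fell by 2.62 (SE 0.29). The 3 genes kept their calls without any one of the 24 arrays, and their 2-week arrays lay below all 5-day arrays.

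Most erythroid and a few macrophage markers were higher, and the means of these lists were highest on replicate 1 at 2 weeks. Of 9 tested erythroid genes 6 were higher, 5 without replicate 3 at 2 weeks, and 3 without mdx at 2 weeks replicate 1 or 2 or mdx at 5 days replicate 3. Tfrc, the transferrin receptor, which muscle also makes, read 11.23, 10.06 and 10.70 and then 12.88, 13.00 and 12.50 (difference 2.13, SE 0.23). Hemgn and Alas2, genes of red cell precursors, were called less firmly. The Hemgn call was lost without any one of 15 arrays (highest limma adjusted p = 0.18). That of Alas2 was lost without mdx at 2 weeks replicate 1 or mdx at 5 days replicate 1 (highest limma adjusted p = 0.095). Of 28 macrophage markers 4 were higher and none lower, a share near the 11.6% of all genes. The count was 6 without replicate 3 at 2 weeks and 2 without mdx at 2 weeks replicate 1. Lyz2, lysozyme of phagocytes, read 8.04, 8.86 and 8.12 at 5 days and 10.38, 9.46 and 9.21 at 2 weeks (difference 1.34, SE 0.28), and remained called without any one of the 24 arrays. Ccr2, the receptor of inflammatory monocytes, rose by 1.90 (SE 0.48) but not without mdx at 2 weeks replicate 1 (adjusted p = 0.053). The macrophage list's mean was 6.99, 7.21 and 7.10 at 5 days and 7.85, 7.31 and 6.96 at 2 weeks, and its median difference of 0.08 was near that of all genes.

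Neutrophil genes separated the 2-week arrays. The list's mean was 6.04, 6.51 and 5.57 at 5 days and 8.83, 7.15 and 5.79 at 2 weeks. With all arrays 1 of 11 tested genes was higher and 1 lower, and without replicate 3 at 2 weeks 6 were higher. Camp, a granule peptide named here after its values were seen, read 4.08, 4.58 and 4.38 at 5 days and 10.24, 7.91 and 5.14 at 2 weeks, and its difference was 3.41 with all arrays (limma adjusted p = 0.068) and 4.73 without replicate 3. Lcn2, lipocalin 2, was the falling member, with 8.64, 11.22 and 7.41 at 5 days and 7.13, 5.48 and 4.57 at 2 weeks (difference -3.36, SE 0.78). It is also made by stressed epithelial and muscle cells, and mdx at 5 days replicate 2 was the highest array.

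Of 23 tested interferon-induced genes 4 were higher and none lower, against 11.6% higher among all genes, and 4 were higher without replicate 3 at 2 weeks. Without mdx at 2 weeks replicate 2 or mdx at 5 days replicate 1 the interferon count was 2. Irf1, a transcription factor of that response, read 7.37, 7.05 and 7.14 and then 8.70, 8.41 and 8.17 (difference 1.24, SE 0.19) and Gbp2, a guanylate-binding protein, rose by 1.59 (SE 0.31). Of 13 complement and chemokine genes 3 were higher, against 11.6% of all genes, and 3 without replicate 3. The count was 2 without any one of mdx at 2 weeks replicates 1 and 2 and mdx at 5 days replicates 2 and 3. Ccl11, an eosinophil chemokine, led them with 6.09, 5.42 and 4.96 at 5 days and 7.55, 7.67 and 8.74 at 2 weeks (difference 2.5, SE 0.31). Ighm, the heavy chain of immunoglobulin M, was the only one of 12 tested lymphocyte genes that was called, with 5.47, 5.69 and 5.48 and 8.37, 7.76 and 8.85 (difference 2.79, SE 0.40).

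Fat markers separated the 2-week arrays. Ucp1, the uncoupling protein that defines brown fat, read 4.48, 4.07 and 4.0 at 5 days and 11.74, 11.91 and 4.23 at 2 weeks. It was named after its values were seen, and was not called with all arrays (5.11, SE 1.80, limma adjusted p = 0.053), while without replicate 3 it was (7.64, SE 1.63). BL10 arrays read 6.35, 4.82 and 4.32 for Ucp1 at 5 days and 12.54, 10.29 and 10.59 at 2 weeks. The brown fat list had a mean of 6.96, 7.28 and 6.65 at 5 days and 8.48, 8.76 and 6.52 at 2 weeks, and the adipocyte list 8.02, 7.95 and 7.36 and 9.19, 9.56 and 7.70. With all arrays 1 of 8 tested brown fat genes was higher, namely Cox8b, which muscle also makes and whose call was lost without mdx at 2 weeks replicate 2 or mdx at 5 days replicate 3, and none of 10 adipocyte genes was called. Without replicate 3 2 brown fat and 2 adipocyte genes were higher, and the adipocyte median went from 1.05 to 1.64. Replicates 1 and 2 at 2 weeks thus carried markers of brown fat at a level that replicate 3 and the 5-day arrays did not, as the BL10 arrays at 2 weeks did, and their part in the other results was not tested.

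Other tissues that a dissection can bring along gave few calls. None of 9 tested skin genes was called, and the list's mean stayed between 6.94 and 7.17 on the 6 arrays. Of 14 tendon and cartilage genes none was called, but the mean was 8.75, 6.66 and 8.34 at 2 weeks, so the 3 arrays differed, and 1 was lower without replicate 3 and 2 higher without mdx at 2 weeks replicate 2. Of 9 markers of peripheral glia 1 was lower, against 6.94% of all genes. It was Erbb3, a receptor of Schwann cells, whose difference of -0.88 was not called without replicate 3. Of 13 markers of fibro-adipogenic cells 3 were higher and 2 lower, against 11.6% and 6.94% of all genes. Without replicate 3 the counts were 2 and 0, against 7.86% and 3.9%.

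**Figure D4:**
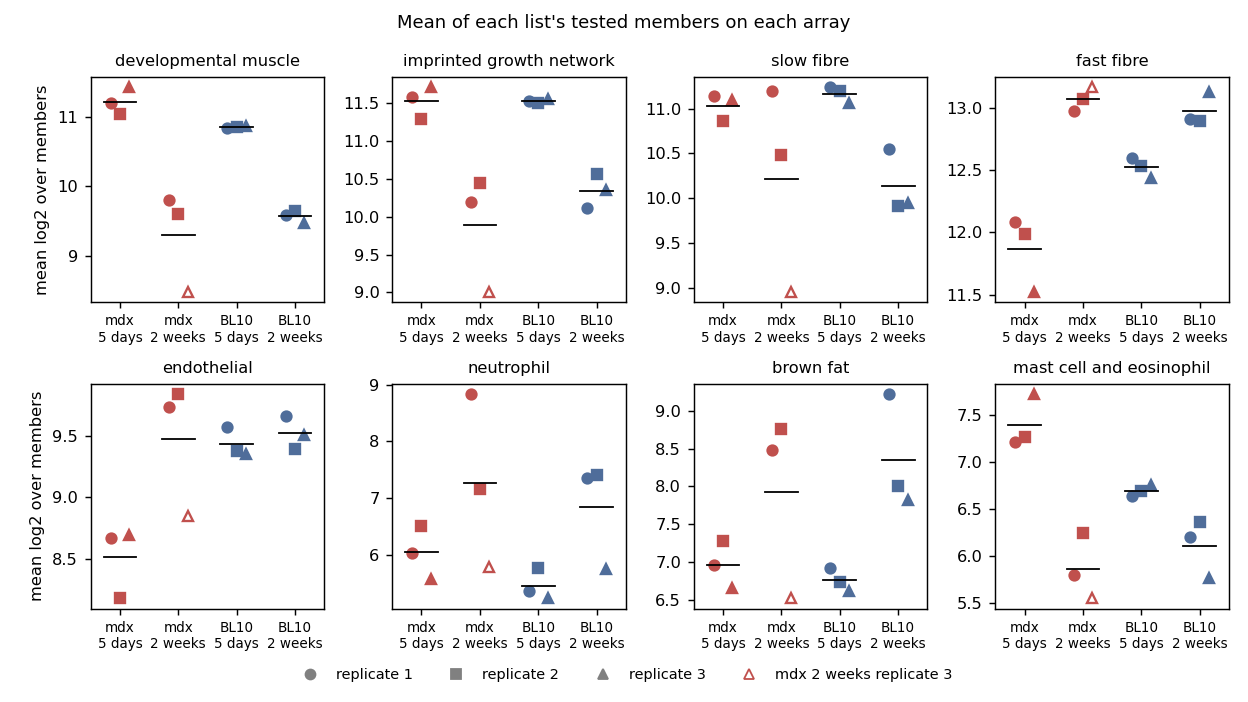
Mean log2 value over the tested members of 8 gene lists on each mdx and BL10 array at 5 days and 2 weeks. Symbols are arrays, black lines are group means and the open triangle is replicate 3 at 2 weeks in mdx. It is the lowest 2-week mdx array for developmental muscle, imprinted, slow fibre, endothelial, neutrophil, brown fat and mast cell genes, and the highest for fast fibre genes.

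Stress genes set mdx at 5 days replicate 2 apart. Fbxo32, the atrogin ubiquitin ligase of wasting muscle, named after its values were seen, read 7.55, 11.51 and 7.41 at 5 days and 9.16, 8.77 and 8.52 at 2 weeks, and was not called (0.00). The atrophy list's mean was 9.38, 10.99 and 9.35 at 5 days and 9.73, 9.6 and 9.80 at 2 weeks. With all arrays 1 of 18 tested genes was higher and 3 lower, against 11.6% and 6.94% of all genes. Without mdx at 5 days replicate 2 the higher count was 6. It was 0 without mdx at 2 weeks replicate 3 or mdx at 5 days replicate 3. Mt1 and Mt2, the metallothioneins, read 11.31, 13.82 and 12.21 and 10.39, 13.25 and 11.92 at 5 days and 10.29, 9.89 and 9.80 and 9.35, 9.13 and 9.83 at 2 weeks (differences -2.46 and -2.42). The Mt1 call was lost without mdx at 5 days replicate 2, and the Mt2 call without that array, mdx at 5 days replicate 3 or any one of the 2-week mdx arrays (highest adjusted p = 0.079 for Mt1 and 0.15 for Mt2).

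Cdkn1a, the cell-cycle inhibitor p21, fell on all arrays of the later age, with 10.68, 12.34 and 10.88 at 5 days and 9.06, 8.72 and 8.08 at 2 weeks (difference -2.68, SE 0.45, limma adjusted p = 0.0003). Hspb1, a small heat shock protein, fell by 1.01 (SE 0.17). Both remained called without any one of the 24 arrays. Of 16 tested clock genes 5 were higher and 1 lower with all arrays, and 0 higher and 1 lower without replicate 3. Dbp, a clock output, read 6.91, 5.92 and 6.03 and 7.68, 7.83 and 9.36, so replicate 3 was the highest. Its difference of 2.01 was 1.47 and no longer called without that array, and the labels give no time of day.

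The largest rises were in genes of several kinds. Among called genes whose arrays did not overlap, the 15 largest rises ran from 3.24 to 4.59. Scml4, a Polycomb-group protein, read 4.0, 4.0 and 4.82 at 5 days and 8.54, 8.61 and 9.45 at 2 weeks (difference 4.59, SE 0.56). With 2 of its 5-day arrays at the floor, that difference is set in part by the floor and its rank is uncertain. Asphd1 read 4.0, 4.20 and 4.49 and 7.81, 9.02 and 9.46 (difference 4.53, SE 0.36), again from values at or near the floor, and Dach1, a transcriptional repressor, 6.47, 6.29 and 5.4 and 9.92, 10.48 and 10.66 (difference 4.30, SE 0.30).

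Apoc1, an apolipoprotein, and Retnla, a product of alternatively activated macrophages, were at the floor on all 5-day arrays, so no fold is given. At 2 weeks Apoc1 read 6.87, 8.89 and 7.37 and Retnla 7.76, 7.36 and 7.98. Tuba8, a muscle tubulin, was at the floor on mdx at 5 days replicate 3 alone and rose by 4.07 (SE 0.68). Ankrd23, a stretch-related ankyrin repeat protein of the sarcomere, read 9.28, 9.02 and 8.68 at 5 days and 12.03, 12.62 and 13.22 at 2 weeks (difference 3.63, SE 0.28).

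The same list holds Marco, a scavenger receptor of macrophages (3.31, SE 0.24), Neu2, a cytosolic sialidase (3.35, SE 0.27), Tnfaip2 (3.61, SE 0.30), Smco1 (3.41, SE 0.38), Plet1os (3.69) and 9930021J03Rik (3.24). All of these 6 remained called without any one of the 24 arrays. Ces1d, a carboxylesterase of fat and liver, rose by 3.52 (SE 1.05), but replicate 3 read 6.22 against 8.96 and 9.85. Its call was lost without mdx at 2 weeks replicate 1 or 2 or mdx at 5 days replicate 3 (highest adjusted p = 0.12).

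The 15 largest falls ran from -4.22 to -3.12. Prr32 read 11.67, 11.75 and 11.86 at 5 days and 7.99, 8.70 and 5.94 at 2 weeks (difference -4.22, SE 0.71). Agtr2, the fetal angiotensin receptor, read 11.07, 11.18 and 11.62 and 7.73, 8.18 and 6.04 (difference -3.97, SE 0.50). Prokr1, a prokineticin receptor, read 8.45, 8.75 and 8.17 at 5 days and 4.0, 5.15 and 4.0 at 2 weeks, where 2 arrays were at the floor.

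Nrk, a kinase of embryonic tissue, differed by -3.6 (SE 0.42), Igsf1 by -3.27 (SE 0.49), Rbpjl by -3.23 (SE 0.37), the imprinted gene Magel2 by -3.19 (SE 0.44) and Acot1, an acyl-CoA thioesterase, by -3.12 (SE 0.72). Prr32, Agtr2, Prokr1, Nrk, Igsf1, Rbpjl, Magel2 and Acot1 kept their calls without any one of the 24 arrays. Without replicate 3 at 2 weeks the fall of Prr32 was -3.42 and that of Agtr2 -3.33, and replicate 3 was the lowest array for both.

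The control strain grew over the same days, and its 6 arrays are shared with no mdx group. In BL10, 1507 genes were higher (10% of those tested) and 880 lower (5.87%). The share of BL10 calls that were higher was 63.1% here, 49.0% with unscaled values and 48.5% with median centring, so its split depends on the scaling, whereas in mdx it was 62.6%, 65.0% and 62.5%. Both strains called 732 genes higher, which is 42.0% of the mdx and 48.6% of the BL10 list, and 388 lower, which is 37.3% and 44.1%. A gene called in one strain and not in the other is not thereby shown to differ.

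The difference between the strains' changes was called for 28 genes (0.187% of those tested), 20 more positive in mdx and 8 more negative, with 1867 genes at an unadjusted p under 0.05. Without replicate 3 at 2 weeks 6 genes were called, and all 6 are among the 28. The count ranged from 4, without BL10 at 2 weeks replicate 1, to 488, without BL10 at 2 weeks replicate 3, over the 24 arrays left out in turn. BL10 at 2 weeks replicate 1 was also the array apart in the controls for RNA quality, and a link was not tested. For all 20 genes with the more positive change the mdx arrays at 5 days lay below every BL10 array of that age, and for 6 of them the mdx arrays at 2 weeks lay above every BL10 array. The levels at both ages enter the difference by which these genes were picked. Those 2 counts are therefore no test, and the same share over all genes was not counted.

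Myh4 is one of these genes. BL10 read 13.28, 13.14 and 12.83 at 5 days and 13.82, 13.91 and 13.88 at 2 weeks, against 11.10, 11.82 and 9.88 and 13.86, 13.88 and 13.77 in mdx. The change was 2.91 in mdx and 0.78 in BL10, a difference between changes of 2.12 (SE 0.37, limma adjusted p = 0.023). The strains were apart at 5 days and overlapped at 2 weeks, when both were near the top of the array's range, so the size of this difference is uncertain. The call was lost when replicate 1 or 2 of BL10 at either age, or replicate 2 or 3 of mdx at 2 weeks, was left out (highest adjusted p = 0.078), with the difference at 2.15 without the last of these.

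Rpl3l and Phyh, a peroxisomal enzyme that breaks down phytanic acid, kept the call without any one of the 24 arrays, although with only the 12 arrays of these groups fitted Phyh was called and Rpl3l was not. For Rpl3l mdx rose by 3.08 and BL10 differed by 0.82, from 9.71, 9.11 and 8.32 and 11.39, 11.11 and 10.90 at 5 days to 11.91, 12.11 and 12.36 and 11.78, 11.79 and 12.28 at 2 weeks. For Phyh the changes were 2.53 and 0.60, and the 2-week arrays read 10.57, 10.69 and 10.59 in mdx and 9.97, 9.54 and 10.06 in BL10, so mdx ended above the control. Aqp4, the water channel of fast fibres, rose by 2.39 in mdx from 9.61, 7.73 and 8.32, while BL10 was at 11.03, 10.94 and 10.96 at 5 days and 10.15, 10.89 and 10.98 at 2 weeks. The Aqp4 difference of 2.69 (SE 0.45) remained called without replicate 3 but was lost when replicate 1 of BL10 at either age, or replicate 2 of mdx at 2 weeks, was left out (highest adjusted p = 0.078).

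Egfbp2, a kallikrein, led the genes with the more negative change among those called without any one of the 24 arrays. It read 8.67, 9.58 and 7.85 in mdx at 5 days and 5.86, 5.84 and 6.11 at 2 weeks, against 5.91, 6.30 and 6.27 and 6.13, 5.98 and 5.88 in BL10 (difference between changes -2.60, SE 0.39). It was not called with only the 12 arrays fitted. Igfbp2 fell by 2.22 in mdx and differed by -0.60 in BL10, where it read 7.09, 7.15 and 7.5 at 5 days, and the difference between changes of -1.62 (adjusted p = 0.048) was lost when any of 18 arrays was left out, replicate 3 at 2 weeks among them (-1.54; highest adjusted p = 0.14).

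**Figure D5:**
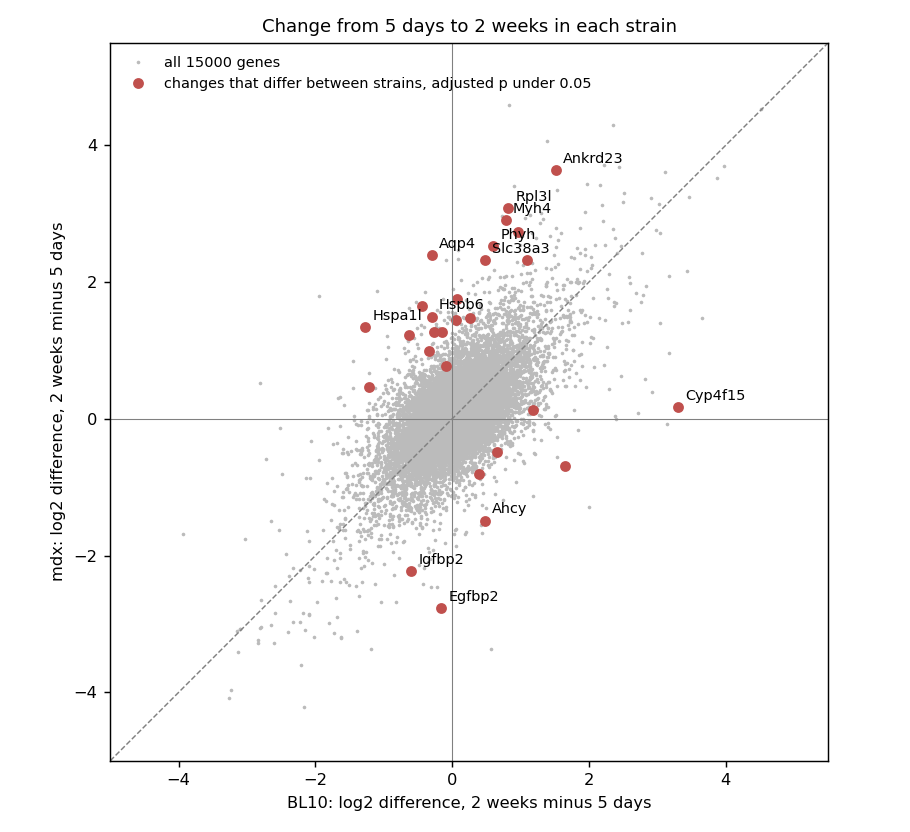
Log2 difference between 2 weeks and 5 days in BL10 (x axis) and in mdx (y axis) for 15000 genes, each a grey dot. Red points are the 28 genes whose changes differ between the strains (limma adjusted p under 0.05) and the dashed line marks equal changes. Of the red points 20 lie above the line, among them Ankrd23, Rpl3l, Myh4 and Aqp4, and 8 below it.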

How the data were processed

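The values are linear intensity per probe set, made by the authors with PLIER, per the submitters' processing notes. The version, background and scaling of PLIER are not given in the sources used here. In all 45101 probe sets were deposited, 64 of them controls. Gene names come from GEO's platform annotation: 34945 probe sets have 1 symbol, 932 several and 9160 none. Values below 0 were set to 0, arrays were quantile normalised, 16 was added and log2 taken. The brightest probe set stood for each symbol. Genes above the 40th percentile of their own array on at least 3 of 24 arrays were kept, which left 15000.

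One limma model of 8 groups was fitted to all 24 arrays (limma 3.58.1 in R 4.3.3, intensity trend, 16 residual degrees of freedom). The contrasts were 2 weeks minus 5 days in mdx, the same in BL10, and their difference, each with Benjamini-Hochberg adjustment at 0.05. The precision is limited by 3 arrays per group, with a median SE of 0.22. Each SE rests on the spread pooled over the 8 groups, not on the groups compared alone. For Myh2 the SE was 0.42, while the SD of its mdx arrays was 1.33 at 5 days and 0.41 at 2 weeks. The fit was tested on simulated data in which a gene had the same spread in every group, so that test does not cover groups of unlike spread. Arrays stayed in the group of their title. The library labelled mdx at 2 weeks replicate 3 was left out for the second set of values. Alternatives covered scaling, added constant, filter, probe sets, trend, array weights, arrays fitted, replicate block and each array left out. Named genes were Dmd, Utrn, the muscle isoforms, the 15 largest rises and falls without overlap, up to 4 called members per list (the 2 largest where none was called) and the 10 largest differences between strains in each direction; others are marked. The lists and members were chosen with earlier results of these data known. Promoter sequences are RefSeq's, build GRCm38.p6, and no genome was used here.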

Additional observations from a re-analysis of the deposited data

Results flagged for a closer look

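Among the 28 genes whose change from 5 days to 2 weeks in mdx differed from that in BL10 are the 18 named here, the 10 largest on the positive side and all 8 on the negative side. They were picked out by the test of the difference itself (limma adjusted p under 0.05). Groups of 3 arrays were not tested for single outlying values. The more negative changes in mdx were those of Cyp4f15 (-3.13), Egfbp2 (-2.60), Sry (-2.34), Ahcy (-1.97), Igfbp2 (-1.62), Khdrbs2 (-1.20), Upk2 (-1.14) and Mrpl57 (-1.05). The more positive ones were those of Aqp4 (2.69), Hspa1l (2.62), Rpl3l (2.26), Myh4 (2.12), Ankrd23 (2.11), Abra (2.10), Phyh (1.93), Atxn7l1 (1.87), Slc38a3 (1.84) and Hspb6 (1.79). Each value is the mdx change minus the BL10 change on the log2 scale.

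Of the 18, Egfbp2, Phyh, Rpl3l and Sry kept the call without any one of the 24 arrays, and Aqp4 did so without replicate 3 of mdx at 2 weeks. The rest were not called without that array. With only the 12 arrays of these groups fitted, Phyh and Sry were called and the other 16 were not. Cyp4f15, a cytochrome P450, read 7.10, 8.02 and 7.05 in mdx and 6.57, 4.19 and 4.0 in BL10 at 5 days, and 7.35, 7.79 and 7.55 in mdx and 8.34, 8.18 and 8.13 in BL10 at 2 weeks, so mdx was above BL10 first and below it later. Ahcy, which breaks down S-adenosylhomocysteine, read 10.39, 11.64 and 10.26 in mdx at 5 days and 9.06, 9.13 and 8.75 in BL10. The Sry probe set is of a kind that can match several genes, and it was at the floor in all BL10 arrays at 5 days. BL10 at 5 days replicate 1 also read 4.0 for the Y-linked gene Eif2s3y, unlike the other arrays of both strains at that age.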

How the results depend on the processing

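With each of the 24 arrays left out in turn, the mdx count ranged from 1764 to 2992 (higher 1179 to 1858, lower 585 to 1134), the BL10 count from 1044 to 2845 and the count of differing changes from 4 to 488. The lowest mdx counts came without mdx at 2 weeks replicate 3. The BL10 count fell to 1044 without BL10 at 2 weeks replicate 1 and to 1483, 1477 and 1108 without BL10 at 5 days replicates 1, 2 and 3. The count of differing changes was 4, 7 and 488 without BL10 at 2 weeks replicates 1, 2 and 3, 18, 5 and 6 without the mdx arrays at 2 weeks, 6, 6 and 12 without the BL10 arrays at 5 days and 161, 14 and 12 without the mdx arrays at 5 days. It was 43 without mdx at 3 weeks replicate 3, and 9 and 12 without mdx at 6 weeks replicates 2 and 3. Fitting only the arrays compared gave 856 genes in mdx (553 higher and 303 lower, with 843 among the 2784) and 3 differing changes. The same kind of fit gave 2737 genes in BL10, against 2387 with all arrays fitted. The 5 mdx arrays alone gave 436 (302 and 134). These fits have fewer residual degrees of freedom, and the cause of the unlike counts in the 2 strains was not tested. At an adjusted p under 0.01 the counts were 1449 (946 and 503) in mdx, 955 in BL10 and 4. Every probe set tested on its own gave 4990 (2696 and 2294), 4964 and 67. Array weights gave 4699 in BL10 and 236 differing changes. Differing changes numbered 45 with unscaled values, 45 with the 60th percentile filter and 43 with the mean of the probe sets, and the cause was not tested. Dmd was against the label on mdx at 2 weeks replicate 3 and on BL10 at 3 weeks replicate 2. Leaving out both, a choice made after seeing the data, gave 655 lower genes in mdx and 18 differing changes.

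Of 144 called genes named by the rule, 27 were lost without replicate 3 at 2 weeks and 9 under another scaling, and 96 remained called without any one of the 24 arrays. More were lost in smaller fits, 62 with only the 6 arrays compared and 79 with the 5 mdx arrays alone. With the mean of the probe sets Tpm3 (-0.16) and Mtor (0.18) had the opposite sign, and a second Mtor probe set was called the other way. None of the other probe sets tested was called for Myl4, Ryr1, Jph2, Myoz3, Marco, Dach1, Prokr1 or Rbpjl, among others. They were called in the same direction for Myh1, Myh4, Tnnt2, Sln, Chrng, Nrk and Igsf1, among others. Labels give the groups the same replicate numbers. Deviations of same-numbered mdx arrays correlated at -0.16, -0.12 and -0.10, and those of unlike-numbered ones at -0.11 to 0.27. With 3 arrays in a group these values constrain each other, so they cannot settle whether the numbers pair the arrays. The replicate block gave 2980 mdx calls and 40 differing changes. The number of arrays limits precision, and the floor limits genes near background.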
